A study of Mus musculus with 7 samples.

Results

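Collagen maturation and crosslinking was read from 10 genes in bone marrow mesenchymal stromal cells of FAPi-treated and DPBS-treated mice. The set holds 2 catalytic subunits of prolyl hydroxylase (P4ha1, P4ha2), 3 lysyl hydroxylases (Plod1, Plod2, Plod3), the collagen chaperone Serpinh1, the procollagen processing enhancer Pcolce and 3 lysyl oxidases (Lox, Loxl1, Loxl2). Members were chosen by gene symbol and matched through their Ensembl gene IDs. All 10 were found among the 53801 gene IDs of the count tables, and all 10 passed the filter on low counts that left 12930 genes. FAPi mice (n = 4) were given an inhibitor of FAP at 500 µg/kg by intraperitoneal injection every day for 35 days. FAP, fibroblast activation protein, is a cell surface peptidase that cleaves after proline and can act on denatured collagen. DPBS mice (n = 3) received the vehicle on the same schedule. All mice were male C57BL/6 mice, 8 weeks old at the start, and the groups shared no other treatment in the labels. Which compound it was is not stated in the labels. From the limb bones, 7000 live cells per sample were sorted as Pdgfra+ and CD45-, Ter119- and Tie2-, and libraries were made by a modified Smart-seq2 method. The labels do not say whether a library held the cells of 1 mouse or of several. In the tests n therefore counts libraries, and p-values set group differences against the spread between these libraries.

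Fibrillar collagen is modified while its chains are still in the endoplasmic reticulum. Prolyl hydroxylases make the hydroxyproline that holds the triple helix together at body temperature, and lysyl hydroxylases make the hydroxylysine used for sugar attachment and for crosslinks. Serpinh1 binds the folded helix and accompanies it towards the Golgi, Pcolce speeds the removal of the C-terminal propeptide by Bmp1 outside the cell, and lysyl oxidases convert lysine and hydroxylysine to the aldehydes from which crosslinks form. In bone, where type I collagen is the main organic component, these steps set the strength of the matrix, and inherited defects in several of the genes cause brittle bone or connective tissue disorders in humans. Several of the genes, P4ha1, P4ha2, Plod2 and Lox among them, are known targets of the hypoxia-inducible factor HIF.

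RefSeq promoter windows of the build GRCm38.p6 were at hand for 6 of the 10 genes, namely P4ha1, P4ha2, Plod1, Plod3, Serpinh1 and Pcolce. The windows of P4ha1 and P4ha2 are shown because the estimates of these paralogs lay on opposite sides of zero, and because both genes are textbook HIF targets. Each run gives the 250 bases upstream of the RefSeq start, read 5′ to 3′ along the gene, with capitals at ACGTG on either strand (CACGT where it lies on the other one), a common form of the core of the HIF response element that also occurs inside the E-box CACGTG.
P4ha1 promoter, chr10:59323046-59323295, plus strand: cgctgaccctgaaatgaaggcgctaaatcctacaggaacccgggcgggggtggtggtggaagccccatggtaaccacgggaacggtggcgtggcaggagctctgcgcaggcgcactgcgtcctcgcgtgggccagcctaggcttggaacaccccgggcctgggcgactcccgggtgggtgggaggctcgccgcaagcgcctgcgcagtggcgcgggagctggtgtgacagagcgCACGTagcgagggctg
P4ha2 promoter, chr11:54100674-54100923, plus strand: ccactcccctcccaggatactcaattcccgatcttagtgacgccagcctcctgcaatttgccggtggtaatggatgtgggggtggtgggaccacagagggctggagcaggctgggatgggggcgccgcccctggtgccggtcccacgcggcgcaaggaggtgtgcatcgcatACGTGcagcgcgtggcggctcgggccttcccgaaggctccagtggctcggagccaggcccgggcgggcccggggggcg
The match began 16 bases before the start in P4ha1 and 78 bases before it in P4ha2. By the wider GENCODE M21 model, P4ha2 begins at base 54100095, so its window lies inside that gene but outside its exons. In Plod3 and Serpinh1 a match began 54 and 171 bases before the start, so that 4 of the 6 windows held 1 match each, while the windows of Plod1 and Pcolce held none. The Pcolce window also lies inside the M21 gene and overlaps an exon of it, so it is not upstream of that model's start. Of all 32851 mouse promoter windows of the same length, 16.6% held the motif. The windows of P4ha1 and P4ha2 were 69.6% and 70.0% G or C, against a median of 52.4% over all windows. A match is a description of these letters only.

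The libraries held 7492570 to 9226841 gene counts in FAPi and 9228260 to 10569690 in DPBS mice, ranges that were apart (exact permutation test, two-sided, p = 0.0571). The 10 genes took 0.146% to 0.208% of a library's counts, and the lowest count of any of them in any library was 88 (Plod1). All 8 listed markers of marrow stroma, such as Cxcl12 and Lepr, passed the filter, and their summed level was 21483 to 28524 TMM-normalised CPM in FAPi and 22791 to 26284 CPM in DPBS libraries. The summed level of 10 neutrophil markers was 196 to 625 CPM in FAPi and 666 to 2845 CPM in DPBS libraries (exact permutation p = 0.0286, the smallest that 35 splits allow, and adjusted p = 0.171 over 9 marker lists). Chondrocyte markers summed to 86.5 to 160.0 CPM in FAPi and 73.4 to 80.6 CPM in DPBS libraries (exact permutation p = 0.0571, adjusted p = 0.171), with Col10a1 and Matn3 at or under the floor of 3 counts in every library. Of the 7 chondrocyte markers 3 passed the filter, 2 with a higher and 1 with a lower estimate in FAPi. Col2a1, described below, is 1 of them and is part of the sums. Macrophage markers summed to 96.5 to 160.4 CPM in FAPi and 149.8 to 364 CPM in DPBS libraries, with the same p-values as the chondrocyte sums, and Fcgr1 was at or under the floor. Only 2 of the 8 macrophage markers passed the filter, 1 with a higher and 1 with a lower estimate in FAPi (log2 differences 0.034 and -1.04). The sums of the macrophage list and of the lists that follow overlapped between the groups. Osteoblast markers summed to 13875 to 24562 CPM in FAPi and 16377 to 25272 CPM in DPBS libraries, erythroid markers to 1567 to 3126 CPM in FAPi and 1695 to 15307 CPM in DPBS, and B cell markers to 732 to 1079 CPM in FAPi and 611 to 970.2 CPM in DPBS. The B cell list includes Ebf1, and 6 of its 8 genes passed the filter, 3 with a higher and 3 with a lower estimate in FAPi. How much each gene gave to the B cell sum was not examined, so it need not stand for B cells. Endothelial markers summed to 28.2 to 368 CPM in FAPi and 26.7 to 144 CPM in DPBS libraries, and pericyte markers, with Tagln at or under the floor, to 272 to 479 CPM in FAPi and 356 to 386 CPM in DPBS. All 10 erythroid and all 10 neutrophil markers had lower estimates in FAPi, with median log2 differences of -1.37 and -1.67 and with 5 and 7 of them at an unadjusted p under 0.05 by edgeR, where 8.14% of all genes were and 0 were called after adjustment. The part of these admixtures in any value below was not tested, and in bulk samples fewer cells of a type and less RNA per cell cannot be told apart.

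None of the 10 genes passed the test for a difference between FAPi and DPBS mice. At an adjusted p under 0.05 by edgeR's quasi-likelihood test, 0 of 10 were called, and 0% of all 12930 genes were called. At an unadjusted p under 0.05, 0 of 10 members were counted, where 8.14% of all genes were (4.45% higher and 3.69% lower in FAPi). DESeq2 called 1.04% of all genes, limma voom 0.00773% and limma on the deposited CPM 0.0155%, each with 0 of the 10 among them. The levels of FAPi and DPBS mice overlapped for all 10 genes in TMM-normalised CPM (counts scaled by effective library size), where 7.34% of all genes had separate groups. Of the estimates, 4 were higher and 6 lower in FAPi, with a median log2 difference of -0.028 over the set and 0.0081 over all genes. The estimates of Lox and Pcolce changed sign with RLE factors and that of Loxl1 with total counts only.

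**Figure D1:**
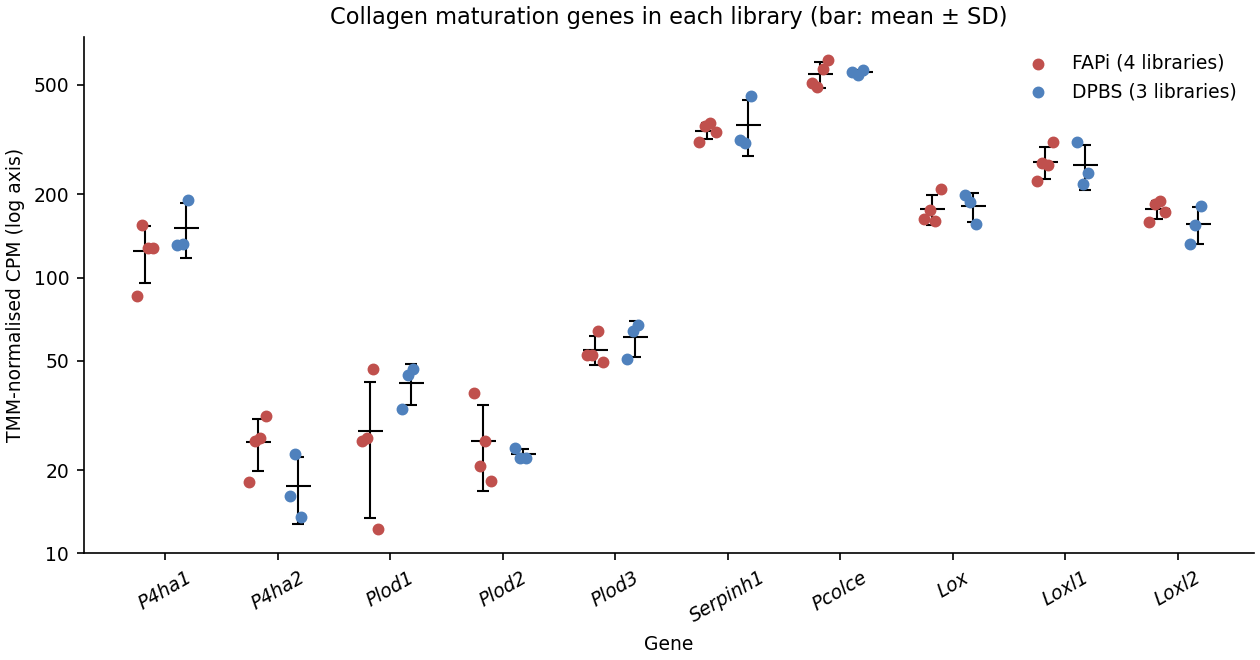
TMM-normalised CPM (log axis) of the 10 collagen maturation genes. Each point is 1 library, FAPi in red to the left of DPBS in blue for each gene, and bars give the mean and SD. The FAPi and DPBS points overlap for every gene, and the levels run from 12.3 CPM (Plod1 in FAPi replicate 4) to 613 CPM (Pcolce in FAPi replicate 4).

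Scaled by the exon length of each gene, the 10 genes spanned a wide range of abundance, and the order was much the same in all libraries. Exon length means all annotated exons of a gene merged. The transcripts present may be shorter, so order and shares between genes depend on this choice. Pcolce averaged 144 CPM per kilobase over the 7 libraries (range 128 to 160.4) and Serpinh1 averaged 143 (range 126 to 186), and these neighbours did not differ beyond their spread. Loxl1 came next with 78.6 CPM per kilobase (range 65.9 to 93.7), below Serpinh1 in 7 of 7 libraries. Lox averaged 37.4, P4ha1 33.1 and Loxl2 31.0 CPM per kilobase, with overlapping ranges. Plod3 followed with 12.7 CPM per kilobase (range 10.97 to 14.9) and stood apart from its neighbours on both sides in 7 of 7 libraries. Plod1 with 4.97, Plod2 with 4.53 and P4ha2 with 3.53 CPM per kilobase were the least abundant and were not separated from each other.

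P4ha1 (chr10:59323296-59373304, plus strand of mm10) encodes the widely expressed catalytic subunit of collagen prolyl hydroxylase. It had 85.5, 155, 128 and 128 CPM in FAPi replicates 1 to 4, against 132, 132 and 191 CPM in DPBS replicates 1 to 3. The lowest value was that of FAPi replicate 1 and the highest that of DPBS replicate 3, and the other 5 libraries lay between them. P4ha1 averaged 124 ± 28.8 CPM in FAPi and 152 ± 33.9 CPM in DPBS libraries (SD, n = 4 and 3), a log2 difference of -0.29 ± 0.29 (SE) with a 95% interval of -0.93 to 0.36 (edgeR, adjusted p = 0.854). Without DPBS replicate 3 the difference was -0.087. In the deposited CPM, which are scaled by total count only, P4ha1 had 87.8, 130.2, 124 and 123 CPM in FAPi libraries, against 155, 136 and 191 CPM in DPBS libraries. There the groups did not overlap, as for 8.17% of all genes, and P4ha1 was the only member for which this held. On that scale the median of all genes was itself shifted by -0.17 (limma on log2(CPM + 1)), and P4ha1 lay at -0.30 relative to that median.

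P4ha2 (chr11:54100095-54131665, plus strand) encodes the second catalytic subunit, which in mouse is prominent in cartilage and bone cells. It had 18.2, 25.5, 26.2 and 31.4 CPM in the 4 FAPi libraries, against 16.2, 22.9 and 13.6 CPM in the 3 DPBS libraries. FAPi replicates 2 to 4 were above all DPBS libraries, and FAPi replicate 1 lay between DPBS replicates 1 and 2. The estimate was 0.53 ± 0.44 on the log2 scale (95% interval -0.43 to 1.49, edgeR adjusted p = 0.8002), from means of 25.3 ± 5.43 CPM in FAPi and 17.6 ± 4.82 CPM in DPBS libraries. Its interval reached from a lower level to more than a 2-fold higher one.

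The lysyl hydroxylases were among the less abundant members of the set, and the SE of their estimates ran from 0.31 to 0.47. Plod1 (chr4:147909753-147936767, minus strand), which hydroxylates lysines within the helix, had 25.6, 26.1, 46.7 and 12.3 CPM in FAPi libraries, against 33.5, 44.3 and 46.7 CPM in DPBS libraries. FAPi replicates 1, 2 and 4 were below all DPBS libraries, while FAPi replicate 3 equalled the highest of them to 3 digits. The difference was -0.58 ± 0.47 (95% interval -1.61 to 0.44, edgeR adjusted p = 0.795), the lowest estimate of the 10. It was -0.33 without FAPi replicate 4 and -0.95 without FAPi replicate 3, so single libraries moved it by more than 1.5 times.

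Plod2 (chr9:92542223-92608428, plus strand), which hydroxylates lysines in the telopeptides and thereby sets the chemistry of the crosslink, had 38.04, 20.7, 25.6 and 18.3 CPM in FAPi libraries, against 24.1, 22.2 and 22.2 CPM in DPBS libraries. FAPi replicate 1 stood highest, the other 3 FAPi libraries spanned the DPBS values, and the DPBS libraries were close together. The estimate of 0.17 ± 0.43 (95% interval -0.77 to 1.11, edgeR adjusted p = 0.962) was -0.086 without FAPi replicate 1. Plod3 (chr5:136987019-136996648, plus strand), which also transfers sugars onto hydroxylysine, had 52.5, 52.3, 64.2 and 49.6 CPM in FAPi libraries, against 50.5, 64.01 and 67.4 CPM in DPBS libraries. Its log2 difference was -0.15 ± 0.31 (95% interval -0.84 to 0.54, edgeR adjusted p = 0.947), and the groups overlapped over most of their range. The Plod3 difference was -0.069 without DPBS replicate 3 and -0.27 without DPBS replicate 1. Reads of Plod2 and Plod3 may be shared with overlapping genes, since an exon of Gm38391 lies opposite Plod2 and one of Znhit1 opposite Plod3, and no label gives the strand setting of the counting.

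Serpinh1 (chr7:99345376-99353239, minus strand), the collagen-specific chaperone of the endoplasmic reticulum, had 310.2, 354, 363 and 337 CPM in FAPi libraries, against 315, 307 and 453 CPM in DPBS libraries. DPBS replicate 3 was the highest, and the other 6 libraries lay within the narrow band of 307 to 363 CPM. The log2 difference was -0.071 ± 0.23 (95% interval -0.58 to 0.44, edgeR adjusted p = 0.974) and 0.13 without DPBS replicate 3. Pcolce (chr5:137605103-137613784, minus strand) had the highest level of the 10 genes in CPM, with 505, 489.7, 572 and 613 CPM in FAPi libraries, against 554, 543 and 565 CPM in DPBS libraries. The 3 DPBS values lay within the range of the FAPi values. It averaged 545 ± 57.8 CPM in FAPi and 554 ± 11.4 CPM in DPBS libraries, a log2 difference of -0.023 ± 0.21 with the narrowest interval of the set, -0.48 to 0.43 (edgeR, adjusted p = 0.994). An exon of Fbxo24 overlaps Pcolce on the same strand, and reads of these 2 genes may be shared.

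Lox (chr18:52516067-52529867, minus strand), the founding lysyl oxidase, had 163, 175, 160.4 and 209 CPM in FAPi libraries, against 199, 188 and 156 CPM in DPBS libraries. The groups covered nearly the same range, and the log2 difference was -0.033 ± 0.24 (95% interval -0.57 to 0.50, edgeR adjusted p = 0.991). Loxl1 (chr9:58287738-58313186, minus strand), known for its part in elastic fibre formation in mice, was the most abundant lysyl oxidase, with 223, 260.2, 257 and 309 CPM in FAPi libraries, against 309, 217 and 238 CPM in DPBS libraries. FAPi replicate 4 and DPBS replicate 1 shared the highest value to 3 digits, and the difference was 0.041 ± 0.24 (95% interval -0.49 to 0.57, edgeR adjusted p = 0.987). Loxl2 (chr14:69609068-69695834, plus strand), which acts on collagen IV and fibrillar collagen, had 159, 184, 189.7 and 173 CPM in FAPi libraries, against 132, 155 and 181 CPM in DPBS libraries. Its 4 FAPi values lay above those of DPBS replicates 1 and 2, and DPBS replicate 3 lay among them, for a difference of 0.18 ± 0.24 (95% interval -0.36 to 0.71, edgeR adjusted p = 0.908). It was 0.063 without DPBS replicate 1 and 0.29 without DPBS replicate 3. Antisense genes with overlapping exons are annotated at Lox and at Loxl2.

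**Figure D2:**
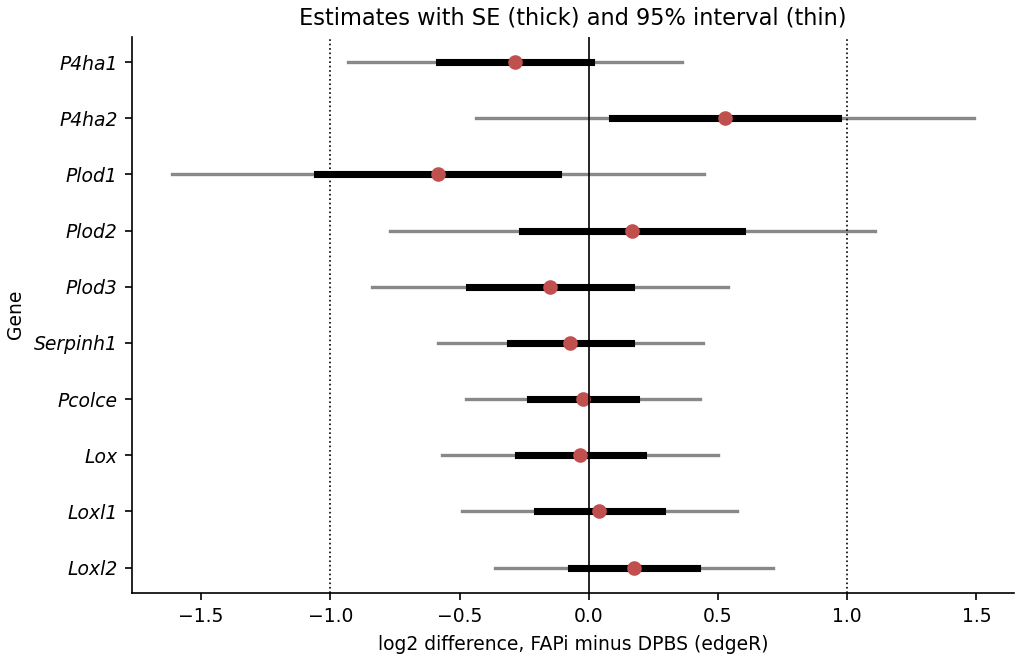
Log2 difference, FAPi minus DPBS, from edgeR for each of the 10 genes. Points are estimates, thick lines the estimate ± 1 SE, thin lines the 95% interval, and dotted lines mark -1 and 1 (a 2-fold difference). Every interval includes 0, and 7 of the 10 lie within the dotted lines, the exceptions being P4ha2, Plod1 and Plod2.

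The intervals say how large a difference the data leave room for. For 7 of the 10 genes the 95% interval lay between -1 and 1 on the log2 scale, where this was so for 1459 of 12930 genes (11.3%). These were P4ha1, Plod3, Serpinh1, Pcolce, Lox, Loxl1 and Loxl2, the 7 most abundant of the set per kilobase. For P4ha2, Plod1 and Plod2 a 2-fold difference in one direction was still inside the interval. A p that misses the threshold does not show that the levels were equal.

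The levels of most of these genes varied little between libraries. The SD within groups had a median of 0.22 log2 CPM over the 10 genes and 0.79 over all genes tested, and it ranged from 0.12 for Pcolce to 0.63 for Plod1. All 10 were below the median of all genes. Spread falls with level in these libraries, since genes around 2.54 log2 CPM had a median SD of 1.14, and genes around 7.43 log2 CPM had one of 0.37. Against genes of similar level, 9 of the 10 lay below the line of medians and Plod1 lay just above it. The highest library exceeded the lowest by 1.25-fold for Pcolce, 1.34-fold for Lox, 1.43-fold for Loxl2 and 3.81-fold for Plod1, and the fold was under 1.5 for 6 of the 10 genes. Genes and libraries are shared between these spreads, so they are a description.

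**Figure D3:**
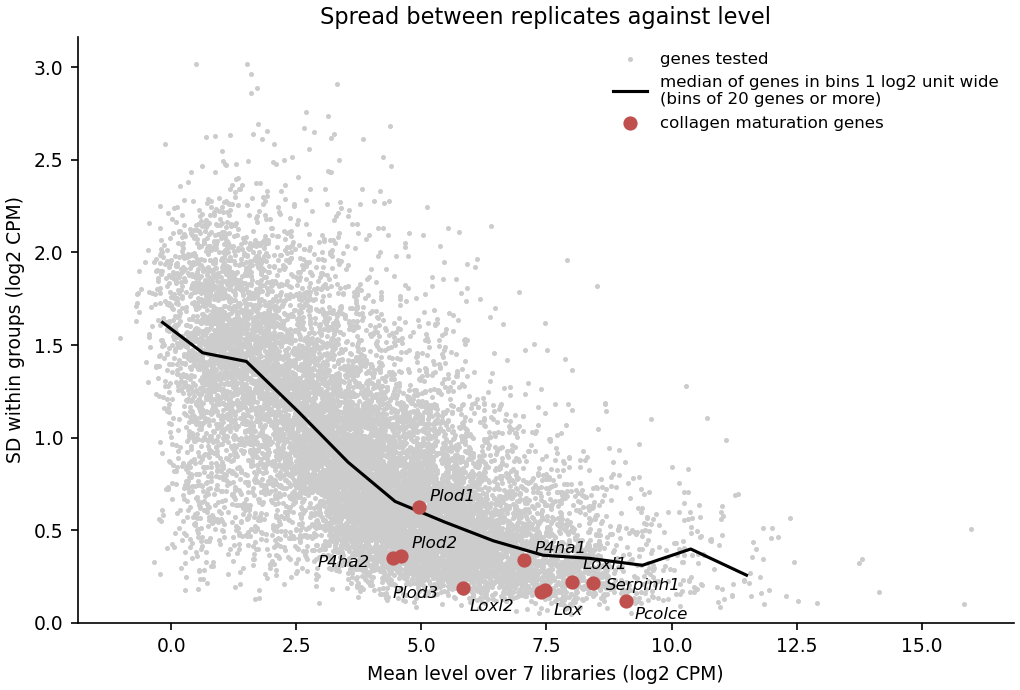
SD within groups (log2 CPM) against the mean level over the 7 libraries (log2 CPM). Grey points are the genes tested, red points the 10 collagen maturation genes, and the line joins medians of genes in bins 1 log2 unit wide that hold at least 20 genes. The red points lie below the line except Plod1, whose SD of 0.63 lies just above it.

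Within each enzyme family, the share of each paralog in the length-scaled level does not depend on how libraries are scaled. It does depend on the exon length used for each gene. P4ha1 made up 86.9 ± 2.48% of the prolyl hydroxylase catalytic subunits in FAPi and 92.5 ± 2.90% in DPBS libraries (SD, n = 4 and 3). P4ha2 made up 12.3%, 9.71%, 11.3% and 13.9% in FAPi libraries, against 7.50%, 10.2% and 4.48% in DPBS libraries. DPBS replicate 2 lay above FAPi replicate 2, and the other FAPi libraries lay above all DPBS libraries (two-sided exact permutation p = 0.0857 for either gene, adjusted p = 0.471 over 11 shares, where the smallest unadjusted p is 0.0286). The third subunit, P4ha3, did not pass the filter on low counts and held 4.71% in FAPi replicate 3 and at most 0.491% in each of the other 3 FAPi libraries, against a mean of 0.107% in DPBS libraries.

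Plod3 held the largest share of the lysyl hydroxylases, 58.6 ± 7.02% in FAPi and 56.3 ± 1.74% in DPBS libraries (exact permutation p = 0.657). Plod1 held 18.7 ± 6.45% in FAPi and 25.7 ± 1.42% in DPBS libraries (exact permutation p = 0.171), and Plod2 held 22.7 ± 5.93% in FAPi and 18.1 ± 3.17% in DPBS libraries (exact permutation p = 0.257). All 3 shares had the wider spread in FAPi libraries. The Plod2 difference of 4.61 points was 1.69 points without FAPi replicate 1, and the Plod1 difference of -6.97 points was -4.48 points without FAPi replicate 4. Among the lysyl oxidases, Loxl1 made up 50.5% in FAPi and 50.5% in DPBS libraries on average, Lox 23.6% in FAPi and 24.9% in DPBS, Loxl2 20.9% in FAPi and 19.3% in DPBS, and Loxl3 4.99% in FAPi and 4.90% in DPBS. Loxl4 did not pass the filter, with 5.39 CPM in DPBS replicate 2 and at most 0.251 CPM in any other library. The exact permutation p of these 5 shares was 0.343 or more, and no share of the 11 passed after adjustment.

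**Figure D4:**
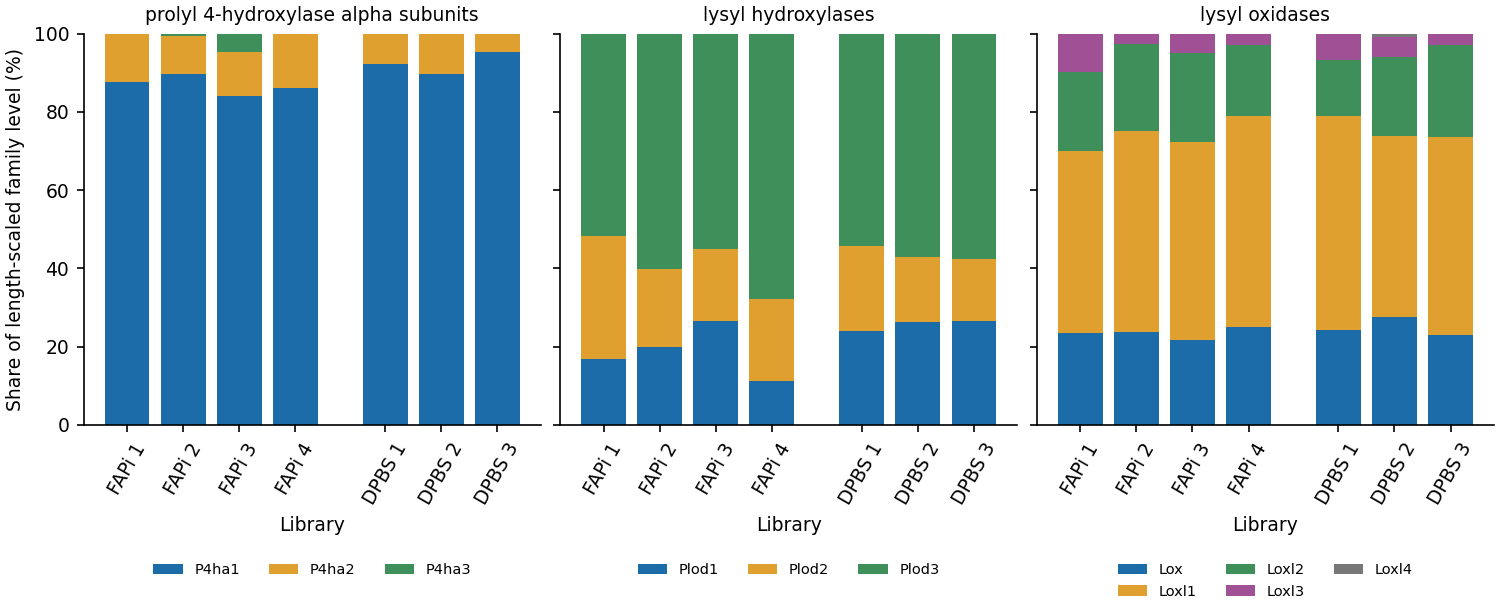
Share of each paralog in the summed length-scaled level of its family (%), 1 bar per library, with the 4 FAPi libraries to the left of the 3 DPBS libraries in each panel. P4ha1, Plod3 and Loxl1 hold the largest share of their family in all 7 libraries, and the P4ha2 segment is 9.71% to 13.9% in FAPi and 4.48% to 10.2% in DPBS libraries.

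Genes that work beside the 10 in the endoplasmic reticulum were described from a list of 14, of which 12 passed the filter, 6 with a higher and 6 with a lower estimate in FAPi and 0 called by edgeR (0 at an unadjusted p under 0.05). Their median log2 difference was 0.0016. P4hb, the disulfide isomerase that forms the non-catalytic subunit of prolyl hydroxylase, had 213, 218, 253 and 222 CPM in FAPi libraries, against 276, 222 and 218 CPM in DPBS libraries. P3h1 and Crtap form the complex that hydroxylates a single proline of the type I collagen chain, together with the isomerase Ppib. Ppib had 14.4, 75.2, 56.3 and 36.7 CPM in FAPi libraries, against 48.3, 53.97 and 57.4 CPM in DPBS libraries. The FAPi values reached both below and above the DPBS range, and FAPi replicate 1 was the lowest. P3h1 was estimated to differ by 0.39 ± 0.35 (edgeR adjusted p = 0.822), P3h2, a related prolyl hydroxylase, by 1.36 ± 1.04 (adjusted p = 0.776), the zinc transporter Slc39a13 by 0.35 ± 0.38 (adjusted p = 0.865) and P3h4, a partner of lysyl hydroxylase complexes, by -0.30 ± 0.40 (adjusted p = 0.905). P3h2 rested on FAPi replicate 1, with 10.7, 3.49, 1.86 and 2.79 CPM in FAPi libraries, against 2.96, 0.422 and 2.07 CPM in DPBS libraries, and its difference was 0.57 without that library. P3h1 was at 0.24 without FAPi replicate 2, Slc39a13 at 0.13 without FAPi replicate 3 and P3h4 at -0.067 without DPBS replicate 1.

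For procollagen processing and crosslinking outside the cell, 8 of 12 listed genes passed the filter, 2 with a higher and 6 with a lower estimate and 0 called (0 at an unadjusted p under 0.05), with a median of -0.15. Bmp1, the protease that Pcolce assists, had 187, 117, 305 and 169 CPM in FAPi libraries, against 176, 178 and 175 CPM in DPBS libraries. Its relatives Tll1 and Tll2 had no count in any library. Atp7a, the copper pump that supplies lysyl oxidases, was estimated to differ by -0.69 ± 0.58 (edgeR adjusted p = 0.809) and by -0.082 without DPBS replicate 3. Adamts14, an N-propeptidase, was estimated to differ by 0.60 ± 0.56 (adjusted p = 0.834), and by 0.32 without DPBS replicate 2. Sparc, a collagen-binding glycoprotein abundant in bone, was estimated to differ by -0.22 ± 0.25 (adjusted p = 0.873), and Efemp2, which brings Lox to elastic fibres, by -0.19 ± 0.25 (adjusted p = 0.905). Both were highest in DPBS replicate 3, and without it Sparc was at 0.11 and Efemp2 at 0.012.

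Export of procollagen from the endoplasmic reticulum was covered by 11 genes, all tested, 7 with a higher and 4 with a lower estimate and 0 called, with a median of 0.090. Creb3l1, a transcription factor that drives procollagen genes in mouse osteoblasts, was the only one at an unadjusted p under 0.05. It had 19.2, 24.4, 20.97 and 28.5 CPM in FAPi libraries, against 23.9, 146 and 46.3 CPM in DPBS libraries, so that DPBS replicate 2 stood far above the rest and DPBS replicate 1 lay within the FAPi range. Its difference was -1.63 ± 0.55 (edgeR, adjusted p = 0.493) and -0.60 without DPBS replicate 2, and it was no longer at an unadjusted p under 0.05 there or by limma voom. Mia3, the cargo receptor for bulky procollagen, had 343, 178, 130 and 182 CPM in FAPi libraries, against 115, 119 and 154 CPM in DPBS libraries. FAPi replicate 1 was the highest, and the difference was 0.69 ± 0.35 (adjusted p = 0.648) and 0.34 without it. Klhl12, an adaptor for enlarging coat vesicles, was estimated to differ by 0.89 ± 0.78 (adjusted p = 0.813), and the coat subunit Sec13 by -0.44 ± 0.38 (adjusted p = 0.814). Klhl12 was at 0.39 without DPBS replicate 3 and 1.36 without DPBS replicate 1, and Sec13 at -0.21 without DPBS replicate 2.

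Fibrillar collagens are among the substrates of the products of the 10 genes. Of these collagens 10 of 11 passed the filter, 6 with a higher and 4 with a lower estimate and 0 called, with a median of 0.039. Col1a1 had 1206, 5215, 1831 and 2282 CPM in FAPi libraries, against 1014, 1799 and 4695 CPM in DPBS libraries. It was highest in FAPi replicate 2 and DPBS replicate 3, and its difference of 0.074 ± 0.56 (edgeR adjusted p = 0.992) was -0.51 without FAPi replicate 2 and 0.90 without DPBS replicate 3. Col1a2, the other chain of type I collagen, had 2737, 3129, 3065 and 3095 CPM in FAPi libraries, against 2652, 2567 and 4263 CPM in DPBS libraries, a difference of -0.072 ± 0.22 (adjusted p = 0.972). Unlike Col1a1, it stood out in DPBS replicate 3 and not in FAPi replicate 2. Col3a1 was estimated to differ by 0.16 ± 0.30, Col5a1 by 0.22 ± 0.28, Col5a2 by 0.28 ± 0.27 and Col27a1 by -0.51 ± 0.63 (adjusted p at least 0.844). With 1 library left out, Col27a1 ranged from -1.26 to 0.48, Col3a1 from 0.00077 to 0.35, Col5a1 from 0.098 to 0.43 and Col5a2 from 0.14 to 0.52. Col2a1, the cartilage collagen, was the only one at an unadjusted p under 0.05, with 15.4, 23.5, 21.2 and 53.9 CPM in FAPi libraries, against 6.72, 4.54 and 18.5 CPM in DPBS libraries (log2 difference 1.52 ± 0.65, edgeR adjusted p = 0.582). The Col2a1 difference was 1.03 without FAPi replicate 4, 1.30 without DPBS replicate 1, 1.17 without DPBS replicate 2 and 2.34 without DPBS replicate 3. It was no longer at an unadjusted p under 0.05 in the first 3 of these, with total counts only or with the replicate block. Col2a1 is itself one of the chondrocyte markers, so their sums contain it and say nothing separate about it. It gave 23.5 of the 86.5 CPM summed in FAPi replicate 2 and 4.54 of the 74.1 CPM in DPBS replicate 2. The part of chondrocytes in the Col2a1 value was not tested.

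DPBS replicate 3 was the highest library for 4 of the 10 genes (P4ha1, Plod1, Plod3 and Serpinh1), for 4 of the 10 tested fibrillar collagens and for 3 of the 8 tested processing genes. It was the highest for 2 of the 12 tested partners in the endoplasmic reticulum and for 0 of the 11 export genes. The share over all genes was not counted, so these counts are a description. FAPi replicate 4 was the highest for 3 members (P4ha2, Lox and Pcolce) and the lowest for 3.

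**Figure D5:**
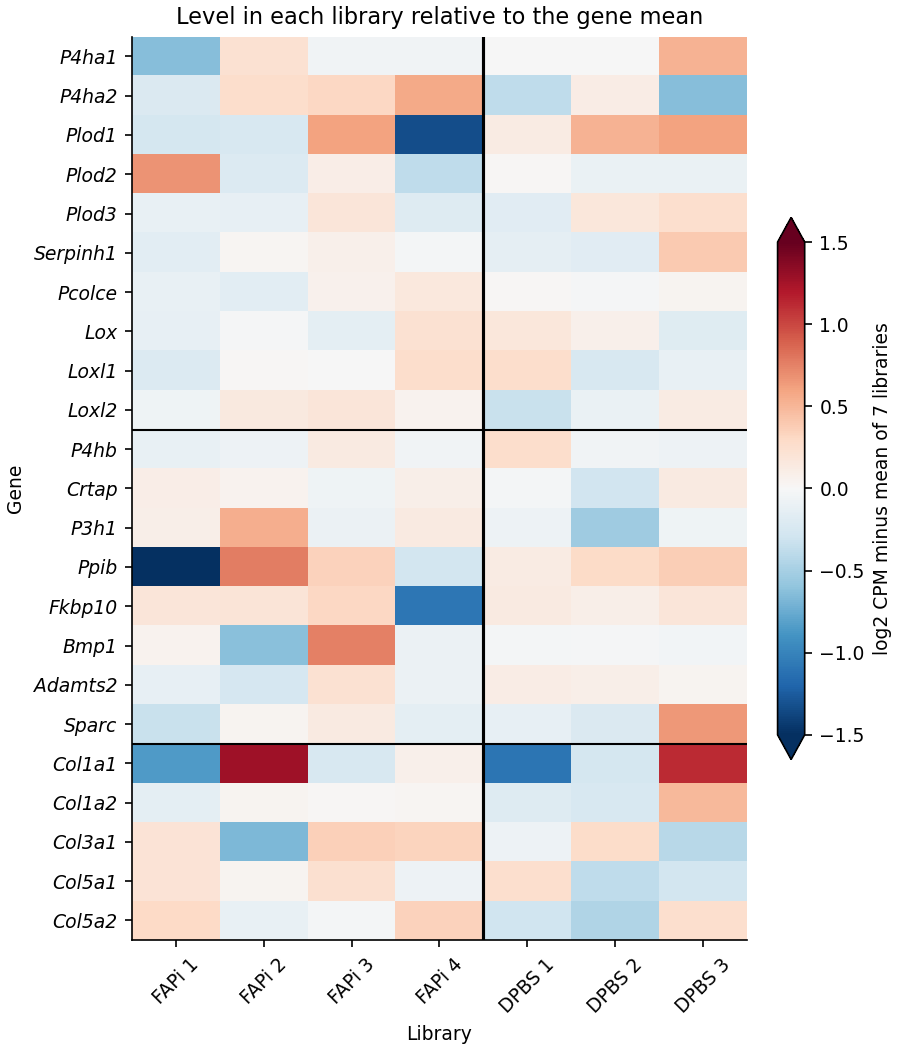
Level of the 10 members (top block), 8 partners (middle) and 5 collagens (bottom) in each library, as log2 CPM minus the gene's mean over 7 libraries, with the 4 FAPi libraries to the left of the 3 DPBS libraries. Colours are capped at -1.5 and 1.5. Plod1 in FAPi replicate 4 is the darkest member, and the darkest cells elsewhere are Ppib in FAPi replicate 1 and Fkbp10 in FAPi replicate 4 (low) and Col1a1 in FAPi replicate 2 and DPBS replicate 3 (high).

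Because several members are known HIF or TGF-beta targets, other targets of both pathways were listed beside them. Of 17 hypoxia genes 14 passed the filter, 7 with a higher and 7 with a lower estimate and 0 called, with a median of -0.026. Ndrg1, a stress-responsive gene, was the only one at an unadjusted p under 0.05, with a difference of 1.64 ± 0.68 (edgeR, adjusted p = 0.574). It rested on FAPi replicate 3 with 109 CPM, while the other FAPi libraries had 21.8 to 25.7 CPM and the DPBS libraries 22.8, 9.61 and 10.6 CPM, and the difference was 0.71 without that library. Ndrg1 was no longer at an unadjusted p under 0.05 without FAPi replicate 3, DPBS replicate 2 or DPBS replicate 3, with total counts only, with the replicate block, or by limma. Vegfa, the angiogenic factor, was estimated to differ by 0.69 ± 0.40 (adjusted p = 0.695), Ddit4, an inhibitor of growth signalling, by 0.53 ± 0.31 (adjusted p = 0.701), and Pdk1, a kinase that restrains pyruvate oxidation, by -1.52 ± 0.89 (adjusted p = 0.704). Single libraries moved these estimates too: Pdk1 was at -0.40 without DPBS replicate 2 and -2.46 without FAPi replicate 4, Vegfa at 0.37 without FAPi replicate 1, and Ddit4 at 0.33 without FAPi replicate 2.

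Of 10 listed TGF-beta target symbols 9 were tested, the tenth, Ctgf, being the older symbol of Ccn2. They gave 7 higher and 2 lower estimates, 0 called and 0 at an unadjusted p under 0.05, with a median of 0.28 beside 0.0081 over all genes. Pmepa1, a feedback inhibitor of the pathway, had 162, 252, 167 and 133 CPM in FAPi libraries, against 104, 116 and 131 CPM in DPBS libraries. On this scale every FAPi library lay above every DPBS library, a pattern that 7.34% of all genes showed. In the deposited CPM the Pmepa1 levels of the groups overlapped. The Pmepa1 difference was 0.61 ± 0.29 (edgeR, unadjusted p = 0.0589, adjusted p = 0.628). Skil, another feedback inhibitor, was estimated to differ by 0.83 ± 0.44, the matrix protein Tgfbi by 0.93 ± 0.61 and Thbs1, which can activate latent TGF-beta, by 0.48 ± 0.38 (adjusted p at least 0.668). With 1 FAPi library left out, Pmepa1 was at 0.39 and Skil at 0.39 (both without replicate 2), Tgfbi at 0.60 (without replicate 3) and Thbs1 at 0.20 (without replicate 1). Of the 3 lysyl oxidases, whose genes are also known TGF-beta targets, the estimates were -0.033 for Lox, 0.041 for Loxl1 and 0.18 for Loxl2.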

How the data were processed

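RNA was measured in 7 libraries, 4 FAPi and 3 DPBS, grouped by the labels. The authors deposited counts per gene and CPM for each library, and per the submitters' processing notes STAR, HTSeq and the build mm10 were used. No label gives versions, annotation or strand setting. The deposited CPM equal each count scaled by the library total, to within 4.55e-05 CPM. In 6 of 7 CPM tables the closing lines are repeated, and of these the earlier copy was kept. Of 53801 gene IDs, 53620 matched GENCODE M21, the source of symbols, coordinates and exon lengths.

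The test on counts was edgeR 4.0.16 under R 4.3.3 (filterByExpr with a minimum count of 10, TMM factors, robust glmQLFit and glmQLFTest, Benjamini-Hochberg adjustment over 12930 genes, threshold 0.05). The SE is the absolute log2 difference over the square root of F, and CPM in the text are TMM-normalised unless called deposited. Shares were tested by two-sided exact permutation over 35 splits. Alternatives were DESeq2 1.42.0, limma 3.58.1 (voom with sample weights, and log2 of deposited CPM plus 1 or 0.1), other scalings, no filter, a replicate block, and leaving out each library. A log2 difference on the CPM plus pseudocount scale understates the change of low genes. Functions were tested on simulated counts. There the edgeR test called 4%, 30%, 54% and 78% of the genes changed 2-fold, 4-fold, 8-fold and 16-fold, with 50 genes of each. It also called 4 unchanged genes in that run. Most 2-fold changes would thus be missed at the adjusted threshold. Every pair of libraries of the same group differed beyond sampling noise, with a chi-square per degree of freedom of 72.1 to 118. Pairs across groups were not checked. The labels do not say whether equal replicate numbers share a cage, day or batch, and the main test did not pair them.

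Members and lists were chosen with earlier results of these data known. The text names all members, up to 4 genes of each partner, substrate or target list by smallest unadjusted p, and Col1a1, Col1a2 and Col3a1. Other genes (P4ha3, P4hb, Crtap, Ppib, Fkbp10, Adamts2, Bmp1, Tll1, Tll2, Loxl3, Loxl4, Cxcl12, Lepr) were named for their role after values were seen. Floors of 3 counts cover counting error only, since amplified reads without molecular identifiers are not independent molecules.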

Additional observations from a re-analysis of the deposited data

Results flagged for a closer look

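A single library standing apart from the other 3 FAPi libraries by Dixon's criterion was found in 9 of 64 measures checked, where chance gives about 1 in 20. None of the 10 collagen maturation genes was among them. The 4 genes were Col27a1 with 177 CPM in FAPi replicate 2 and 33.8 to 57.9 CPM in the other FAPi libraries, Ndrg1 with 109 CPM in FAPi replicate 3 and 21.8 to 25.7 CPM in the others, Pdk1 with 10.9 CPM in FAPi replicate 4 and 1.75 to 2.84 CPM in the others, and Col1a2 with 2737 CPM in FAPi replicate 1 and 3065 to 3129 CPM in the others. P4ha3 made up 4.71% of its family in FAPi replicate 3 and 0 to 0.491% in the others. The ratio of P3h1 to Crtap was 0.242 in FAPi replicate 2 and 0.169 to 0.179 in the others. Among the marker sums, neutrophil markers reached 196 CPM in FAPi replicate 4 and 585 to 625 CPM in the others, macrophage markers 160.4 CPM in FAPi replicate 4 and 96.5 to 107 CPM in the others, and endothelial markers 368 CPM in FAPi replicate 1 and 28.2 to 60.2 CPM in the others.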

How the results depend on the processing

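No member passed the adjusted threshold, or an unadjusted p under 0.05, under any of the 16 other settings run. Over all genes, 0 were called; DESeq2 called 84 higher and 51 lower in FAPi, voom 1 higher, limma on deposited CPM 2 higher with either pseudocount, and edgeR without a filter 5 higher and 1 lower. Leaving out each library called 0 to 2 higher and 0 to 1 lower. The 1053 genes at an unadjusted p under 0.05 became 1911 without a filter, 704 with the replicate block and 824 to 1084 with a library left out. The block, on replicates 1 to 3 of both groups, called 0 genes, and same-numbered libraries correlated at -0.01, -0.02 and -0.05. Scaling by total counts shifted the median of all genes to -0.16 and that of the members to -0.21, against -0.028 with TMM factors (also -0.21 with limma on CPM). Estimates near 0 changed sign: Lox (0.000188) and Pcolce (0.00899) with DESeq2, and with RLE factors (0.000223 and 0.008993), Loxl1 with voom (-0.0035), total counts (-0.15), CPM (-0.13) and the block (-0.026), Plod2 (-0.059 and -0.063 with pseudocounts 1 and 0.1), Col1a1 (-0.028 with both) and Col3a1 (-0.044 and -0.045) with CPM, Col1a1 (-0.11) with total counts, and the Loxl1 share (-0.131 points) without length scaling; the cause was not tested. With a library left out, ranges crossed 0 for Plod2 (-0.086 to 0.30), Lox (-0.13 to 0.035), Loxl1 (-0.062 to 0.20), Serpinh1 (-0.17 to 0.13), Pcolce (-0.077 to 0.014), Sparc (-0.38 to 0.11), Efemp2 (-0.31 to 0.012), Col27a1 (-1.26 to 0.48), Col1a1 (-0.51 to 0.90) and Col1a2 (-0.21 to 0.20), and in points for the shares of Plod3 (-0.693 to 4.67), Loxl1 (-2.09 to 2.05), Loxl2 (-0.942 to 3.66), Loxl3 (-1.48 to 1.03) and Loxl4 (-0.441 to 0.00853). The lowest count of a member in any library was 88, well above the floor of 3 counts.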

Other observations

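The chaperone Serpinh1 and one of its client chains kept a nearly constant proportion in these libraries, a pair chosen after the values were seen and given as a description without a test. Scaled by exon length, Serpinh1 stood to Col1a2 at 0.576, 0.575, 0.603 and 0.554 in FAPi libraries, against 0.603, 0.608 and 0.541 in DPBS libraries. All 7 values lay between 0.541 and 0.608. The ratio of Serpinh1 to Col1a1 was far more variable, at 0.691, 0.182, 0.533 and 0.397 in FAPi libraries, against 0.834, 0.458 and 0.259 in DPBS libraries. Type I collagen is made of 2 Col1a1 chains to each Col1a2 chain, and the length-scaled ratio of their transcripts was 0.834, 3.16, 1.13 and 1.40 in FAPi libraries, against 0.724, 1.33 and 2.08 in DPBS libraries. The transcript ratio exceeded 2 in FAPi replicate 2 and DPBS replicate 3 only, in 1 library of each group. Its value depends on the exon lengths used, and a ratio of transcripts need not match that of protein chains. The ratio of P4ha1 to P4ha2 averaged 7.50 ± 1.28 in FAPi and 14.1 ± 6.48 in DPBS libraries (SD, n = 4 and 3), with DPBS replicate 3 at 21.3 and the ranges overlapping.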
